A study of Mus musculus with 51 samples.

Results

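Zscan4c, Zscan4d, Zscan4f, Zfp352, Tcstv1 and Tcstv3 are genes whose transcripts mark the two-cell stage of the mouse embryo and the rare two-cell-like cells of embryonic stem cell (mESC) cultures. The 6 genes were taken by name from a table of 35591 counted genes, and all 6 were found. Their reads were followed in 6 male mESC lines kept in 2i LIF, a defined medium with 2 kinase inhibitors and leukaemia inhibitory factor, 3 lines of each Smchd1 genotype. Smchd1 encodes a chromosomal protein involved in gene silencing. The control lines (wt) were Smchd1[fl/+], and the maternal null lines (mat del) were Smchd1[del/+], made by Zp3-Cre, which acts in the growing oocyte. All lines were C57BL/6/Cast F1 cells, each from its own blastocyst of a mother with floxed Smchd1 and a Cast father, so that every line kept an intact paternal Smchd1 allele and the maternal null concerns what the oocyte supplied together with the maternal allele. In 2i LIF the genotypes are compared before any differentiation, here for two-cell-like transcripts. The remaining 45 of the 51 RNA-seq libraries of the series form a differentiation time course of both genotypes. By label they are repeated samplings of 2 lines per genotype. They include undifferentiated cells in another LIF medium (DME LIF, day 0) and cells at days 1, 2, 2.5, 3 and 4. After the day 0 samples the medium held FGF, with a Wnt activator from day 2 and GDF11 from day 3.

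In the mouse embryo the major wave of genome activation takes place at the two-cell stage, when the transcription factor Dux switches on MERVL retroelements and a set of genes that includes the Zscan4 cluster, Zfp352 and the Tcstv genes. In mESC cultures a small and changing share of cells re-enters this programme for a time. Zscan4 proteins are zinc finger proteins known for a role in telomere maintenance and genome stability. Zfp352 is a zinc finger gene transcribed at the two-cell stage, and Tcstv1 and Tcstv3 are members of a small two-cell-stage variable gene family. In bulk RNA a lower share of such cells and less RNA per such cell cannot be told apart.

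The 3 Zscan4 genes lie in a cluster of near-identical copies on chromosome 7 of GRCm38. Zscan4c (ENSMUSG00000054272) is at chr7:11005745-11010547 on the plus strand, Zscan4d (ENSMUSG00000090714) at chr7:11161374-11166159 on the minus strand and Zscan4f (ENSMUSG00000070828) at chr7:11397915-11402318 on the plus strand. Zfp352 (ENSMUSG00000070902) is at chr4:90218820-90225702, plus strand. Tcstv1 (ENSMUSG00000096284) is at chr13:119893388-119894785, minus strand, and Tcstv3 (ENSMUSG00000095821) at chr13:120316878-120318178, plus strand. All 6 are annotated as protein coding. RefSeq promoter windows of GRCm38.p6, from 250 bases before to 50 after the annotated start, were found for 4 of the 6 genes, and are shown because the copies of Zscan4 share nearly the same letters there as well as in the transcript. Capitals mark TATAAA in the Zscan4 windows (chr7:11005495-11005794, plus strand, for Zscan4c, chr7:11166099-11166398, minus strand, for Zscan4d and chr7:11397665-11397964, plus strand, for Zscan4f). In the Zfp352 window (chr4:90218570-90218869, plus strand) they mark AGGACAACACAC.
Zscan4c: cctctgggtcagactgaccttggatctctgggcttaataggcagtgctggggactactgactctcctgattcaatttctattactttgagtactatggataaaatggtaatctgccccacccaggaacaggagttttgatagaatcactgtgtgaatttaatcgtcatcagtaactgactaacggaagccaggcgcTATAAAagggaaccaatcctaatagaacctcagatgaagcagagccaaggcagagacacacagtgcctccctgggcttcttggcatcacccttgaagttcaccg
Zscan4d: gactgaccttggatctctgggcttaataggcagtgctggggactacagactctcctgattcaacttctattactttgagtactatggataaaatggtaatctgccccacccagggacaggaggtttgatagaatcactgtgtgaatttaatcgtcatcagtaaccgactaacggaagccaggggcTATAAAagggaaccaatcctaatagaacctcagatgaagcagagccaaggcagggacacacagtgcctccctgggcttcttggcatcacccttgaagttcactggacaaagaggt
Zscan4f: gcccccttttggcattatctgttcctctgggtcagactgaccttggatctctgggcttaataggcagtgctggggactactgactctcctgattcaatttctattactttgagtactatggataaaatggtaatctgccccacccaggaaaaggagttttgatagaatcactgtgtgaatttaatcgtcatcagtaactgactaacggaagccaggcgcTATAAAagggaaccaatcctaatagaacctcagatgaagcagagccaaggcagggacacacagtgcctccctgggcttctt
Zfp352: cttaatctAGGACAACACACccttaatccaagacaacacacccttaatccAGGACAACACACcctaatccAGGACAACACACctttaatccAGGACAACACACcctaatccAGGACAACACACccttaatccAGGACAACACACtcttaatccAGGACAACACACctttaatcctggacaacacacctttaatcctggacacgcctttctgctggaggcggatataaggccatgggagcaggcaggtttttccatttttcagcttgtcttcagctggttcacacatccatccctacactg

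TATAAA stood once in each of the 3 Zscan4 windows and on neither strand of the Zfp352 window. On either strand it was present in 13.6% of the 32851 promoter windows of the same length. AGGACAACACAC, 1 of 2 overlapping runs of 12 letters that tied as the most repeated in the Zfp352 window, occurred 7 times, and this window was the only 1 of the 32851 that held it on either strand. Over aligned bases the windows of Zscan4c and Zscan4f were 99.3% identical, those of Zscan4d and Zscan4f 97.4%, and those of Zscan4c and Zscan4d 97.2%. Such letter matches describe the sequence and do not show which factor binds.

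The transcripts were alike too. The longest annotated transcripts of Zscan4c and Zscan4f differed at 9 of 1806 aligned bases, and those of Zscan4d and Zscan4f at 40 of 1806. Tcstv1 and Tcstv3 were 87.7% identical over 749 aligned bases. Of all stretches of 75 bases, the read length of the time course, 83.4% in Zscan4f, 78.6% in Zscan4c and 39.5% in Zscan4d also occurred in the transcript of another gene. The corresponding shares were 14.3% in Tcstv3, 6.9% in Tcstv1 and 2.9% in Zfp352. Reads could therefore be split between Zscan4 copies by the authors' mapping, and the value of a single copy is less certain than the sum of the copies.

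The labels were first checked against the targeted gene and against markers of pluripotency. Smchd1 stood at 106.9, 123.8 and 119.3 CPM (read counts per 1000000 counted reads, scaled by the TMM method) in control lines 1, 2 and 3, and at 63.7, 72.0 and 90.6 in maternal null lines 1, 2 and 3. The genotypes did not overlap, with a log2 fold change of -0.63 ± 0.14 (SE, edgeR quasi-likelihood test, adjusted p = 0.99, unadjusted p = 0.0023, n = 3 lines each), and an exact two-sided permutation test gave p = 0.1, the smallest that 3 against 3 lines allow. These counts cover the whole gene and both alleles. Pou5f1, Nanog, Sox2 and Zfp42, 4 of 14 listed pluripotency genes, were abundant in every line. Pou5f1 was between 735 and 1059 CPM, Nanog between 680 and 895, Sox2 between 358 and 473 and Zfp42 between 161 and 262. Of the 14 listed genes 10 had a positive and 4 a negative log2 fold change in edgeR, beside 8547 and 9149 of all tested genes. An unadjusted p under 0.05 was reached by 2, Klf4 and Prdm14 (named after their values were seen), and 0 passed after adjustment. Both were higher in the maternal nulls, beside 1.07% of all tested genes with such a p in this direction. The genotypes did not overlap for 3 of the 14 (21.4%), beside 8.00% of all genes with a count. Library totals ran from 27526359 to 126716460 counts, with control line 1 and maternal null line 3 the shallowest. Over all counted genes maternal null line 3 and control line 3 stood apart from the rest. The chi-square of a pair of libraries divided by its degrees of freedom, which also grows with depth, was 71.4 to 123 for the pairs with maternal null line 3 and 35.1 to 72.2 for those with control line 3, beside 8.95 to 21.9 among the other 4 lines. A count of 0 allows a level of up to 0.108 CPM in control line 1 and 0.0859 CPM in maternal null line 3, against 0.023 to 0.0629 CPM in the other 4 lines (3 counts, counting error only).

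The 6 two-cell-like genes were barely detectable in 2i LIF. Zscan4d, the most counted of the 6 genes, had 1, 15 and 9 counts in control lines 1, 2 and 3 and 22, 14 and 0 counts in maternal null lines 1, 2 and 3. On the CPM scale these were 0.036, 0.115 and 0.189 in the controls and 0.182, 0.129 and 0 in the maternal nulls. The ranges overlapped, and the lowest line of either genotype was the shallowest library of that genotype. Zscan4d was the only 1 of the 6 genes to pass the expression filter of edgeR, and its log2 fold change was 0.02 ± 0.75 (SE, edgeR adjusted p = 0.9998). The difference in mean log2 CPM was -0.39 (exact two-sided permutation p = 0.8, n = 3 lines each), so that even the sign rested on how the lines were weighted. Of the 17696 genes tested, 0 (0.00%) passed an adjusted p of 0.05 in edgeR (0 in DESeq2 and 2 in the exact test of edgeR), whereas 397 (2.24%) had an unadjusted p under 0.05. Zscan4d was not among the latter. With the line number as a block the unadjusted count was 730, and 0 genes passed after adjustment.

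Zscan4c was counted 0, 12 and 1 times in the control lines and 12, 3 and 1 times in the maternal null lines. Control line 2 and maternal null line 1 were thus the high lines, at 0.0922 and 0.0994 CPM, and the other 4 lay at or below 0.0287. Zscan4f had 0, 1 and 0 counts in the controls and 5, 7 and 0 in the maternal nulls. Pooled over lines this was 1 count against 12, a ratio of 9.34 with an exact 95% interval of 1.38 to 399 that covers counting error alone. Maternal null lines 1 and 2 carried all 12 of those counts, and line 3 had none. The pooled ratio of Zscan4c was 0.958 (0.432 to 2.17), and that of Zscan4d 1.12 (0.655 to 1.95). The difference in mean log2 CPM was 0.94 for Zscan4f and 0.45 for Zscan4c (1.75 and 0.96 with a prior count of 0.5 in place of 2), with exact two-sided permutation p = 0.4 and p = 0.5 (n = 3 lines each).

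Zfp352 was read 0, 1 and 2 times in the controls and 6, 4 and 0 times in the maternal nulls. Its pooled ratio of maternal null to control was 2.60 (exact 95% interval 0.668 to 14.7, counting error only), so that the interval spanned equality. Tcstv1 had 0, 5 and 5 counts in the controls and 12, 15 and 0 in the maternal nulls. Its CPM ran from 0 to 0.105 in the controls and from 0 to 0.138 in the maternal nulls, and its pooled ratio was 2.10 (0.986 to 4.87). Tcstv3 had 0, 1 and 0 counts against 6, 5 and 0, again with every maternal null read in lines 1 and 2. Its pooled ratio was 8.56 (1.25 to 369). For these 3 genes the exact permutation test on log2 CPM gave p = 0.8, p = 0.8 and p = 0.4 in this order, and all 3 genotype ranges overlapped because a control line and maternal null line 3 were at 0.

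**Figure D1:**
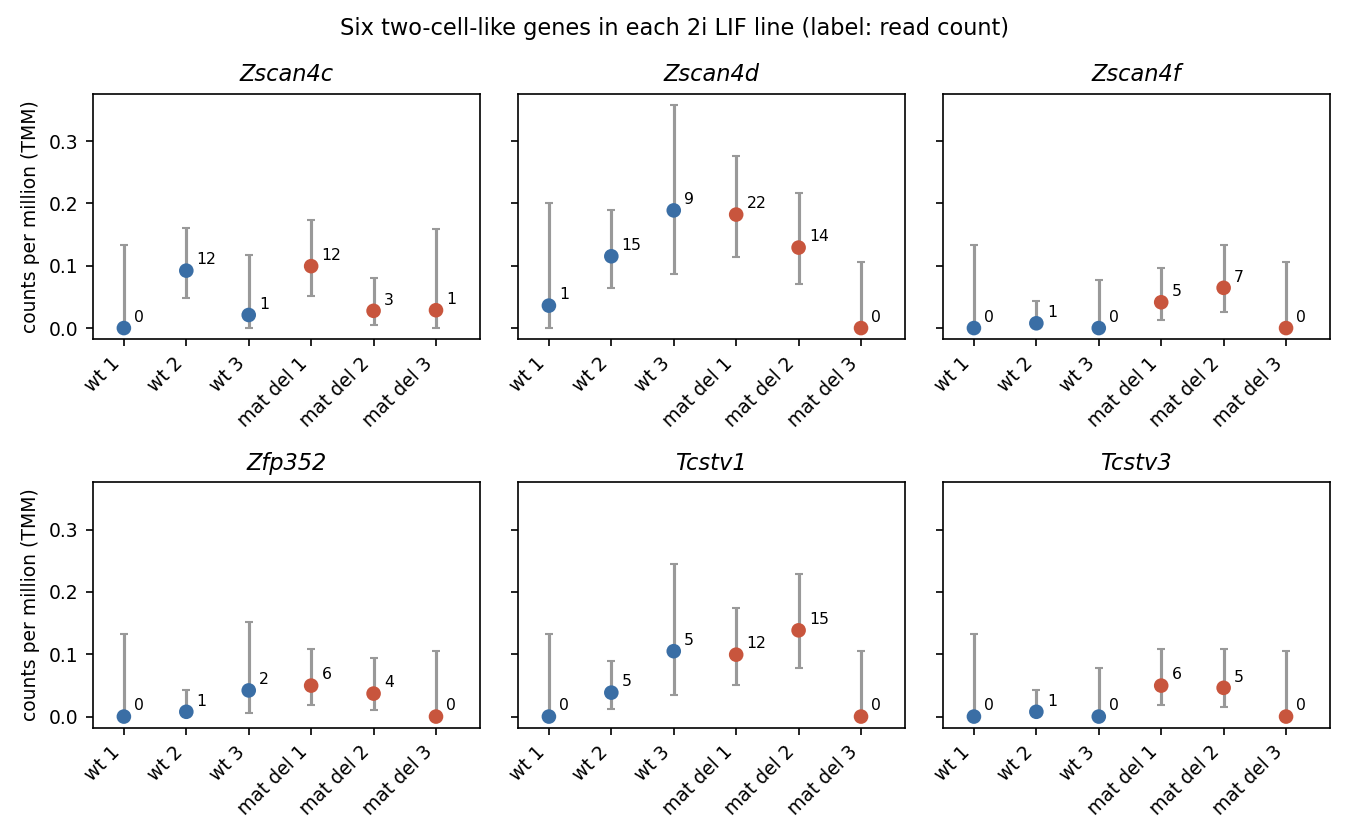
CPM (vertical axis, TMM scaled) of the 6 two-cell-like genes in each 2i LIF line, blue for control and red for maternal null; the number beside a point is its read count and grey bars are exact 95% Poisson intervals. Maternal null line 3 had a single read, on Zscan4c, while lines 1 and 2 had reads on all 6 genes.

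When all 24886 genes with any count were fitted, so that each of the 6 genes had an edgeR estimate, 0 of the 6 passed. The log2 fold changes were 2.81 ± 1.37 (SE) for Zscan4f, 2.68 ± 1.37 for Tcstv3, 1.02 ± 1.24 for Zfp352, 0.81 ± 1.03 for Tcstv1, 0.19 ± 1.01 for Zscan4c and -0.02 ± 0.88 for Zscan4d. The smallest adjusted p among them in this edgeR fit was 0.93. The mean CPM was higher in the maternal null lines for 5 of the 6 genes, compared with 49.7% of all genes with a count. This count was 4 without control line 1 or without maternal null line 1, and 6 without control line 3, without maternal null line 3 or without both shallowest libraries. The genotype ranges overlapped for all 6 genes, whereas 8.00% of all genes with a count showed no overlap.

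Per kilobase of exon the order of the mean levels over the 6 lines was Zscan4d, Tcstv1, Tcstv3, Zscan4c, Zfp352 and Zscan4f. Zscan4d stood at 0.0478 ± 0.0337 CPM per kb (SD, n = 6 lines) and Tcstv1 at 0.0454 ± 0.0421. Zscan4f, at 0.00967 ± 0.0141 CPM per kb, and Zfp352, at 0.00998 ± 0.00994, had the lowest levels. In none of the 5 neighbouring pairs in this order did the levels differ beyond their spread over lines (exact two-sided sign-flip test, n = 6 lines, p from 0.125 to 0.875, Benjamini-Hochberg adjusted 0.625 to 0.875). Smchd1 itself, for scale, stood at 4.81 CPM per kb.

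The 6 genes varied together over the lines. Summed, they gave 1, 35 and 17 counts in control lines 1, 2 and 3 and 63, 48 and 1 counts in maternal null lines 1, 2 and 3. As levels these sums were 0.036 CPM (exact 95% interval 0.000912 to 0.201), 0.269 (0.187 to 0.374) and 0.357 (0.208 to 0.571) in the controls. In the maternal nulls they were 0.522 (0.401 to 0.667), 0.443 (0.326 to 0.587) and 0.0287 (0.000725 to 0.16). The interval of maternal null line 3 lay below those of the other 2 lines of its genotype. Control line 1, with the shallowest library, had an interval that overlapped that of line 2 and ended below that of line 3. The Pearson correlation between 2 of the genes over the 6 lines, on log2 CPM, ran from 0.379 to 0.98 with a median of 0.647 over 15 pairs. Since the same libraries and their depths enter both genes, and reads are shared between copies, these correlations are a description of the lines.

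Among other copies of the Zscan4 cluster maternal null line 3 was again the lowest line, and control line 1 was not a low line. The 5 counted copies other than Zscan4c, Zscan4d and Zscan4f stood at 0.288, 0.169 and 0.525 CPM in control lines 1 to 3 and at 0.613, 0.378 and 0.0287 CPM in maternal null lines 1 to 3. Reads on all 8 counted copies, with Zscan4b, Zscan4e and the loci Zscan4-ps1, Zscan4-ps2 and Zscan4-ps3, summed to 9, 50 and 35 in the controls and 113, 65 and 2 in the maternal nulls. The sum was 0.324, 0.384 and 0.734 CPM in control lines 1 to 3 and 0.936, 0.599 and 0.0573 CPM in maternal null lines 1 to 3. Zscan4-ps3 was the other copy that passed the filter, with a log2 fold change of -0.30 ± 0.67 (SE, edgeR adjusted p = 0.99).

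**Figure D2:**
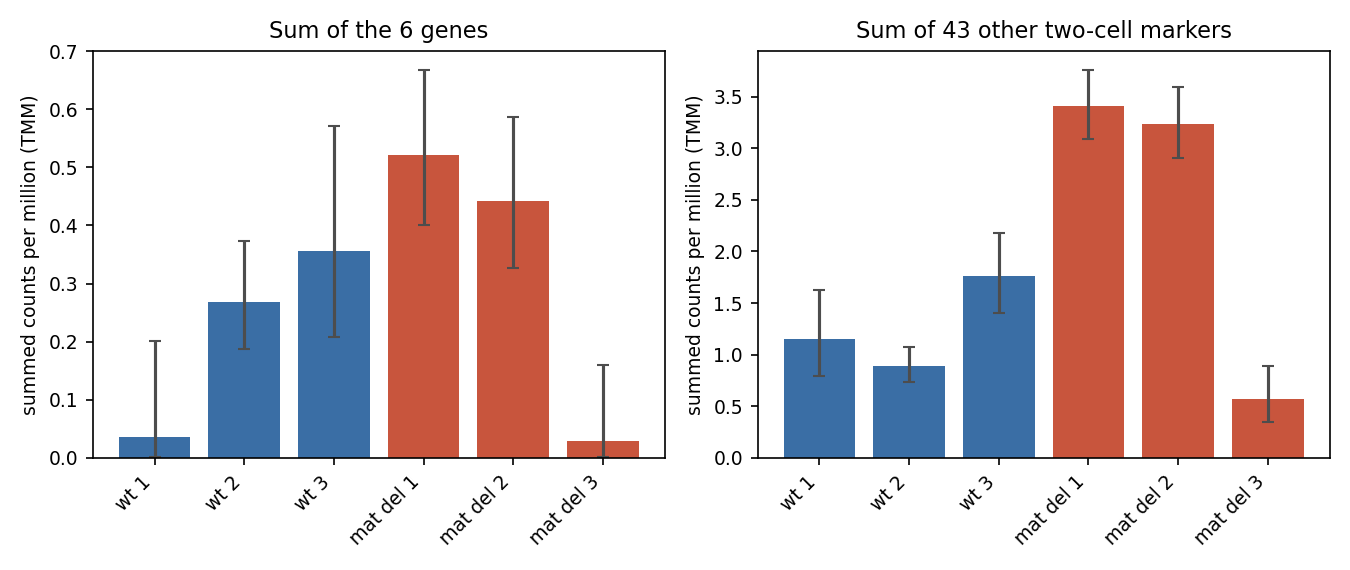
Summed CPM (vertical axes, from 0) in each 2i LIF line for the 6 genes (left) and for 43 other two-cell markers (right, without the 4 most counted ones, which were left out after their values were seen), with exact 95% Poisson intervals; blue bars are control and red bars maternal null lines. Maternal null lines 1 and 2 were the highest and maternal null line 3 the lowest in both panels, whereas over all 47 markers line 3 was the highest maternal null line.

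A list of 49 further two-cell markers was examined in the same lines, and 47 of them were in the table. Of these 39 had at least 1 count and 9 passed the filter. In the edgeR fit 0 of the 9 passed an adjusted p of 0.05, 2 had an unadjusted p under 0.05 with a positive log2 fold change and 1 with a negative one, beside 1.07% and 1.17% of all tested genes in these directions. The median log2 fold change of the 9 was 0.27, beside -0.01 over all tested genes. Over the 39 markers with a count, the mean CPM was higher in the maternal nulls for 29, or 74.4%, beside the 49.7% of all genes. This number was 21 without maternal null line 1, 24 without line 2, 32 without line 3 and 33 without control line 3. Such a share was not particular to the two-cell markers. It was 74.1% of the 27 listed repressors of the two-cell-like state and 71.4% of the 14 listed pluripotency genes. Among the primed epiblast markers it was 50%, and among the fibroblast markers with a count 42.9%. Several of the 29 markers, among them Usp17lb, Gm4027 and BC080695, had 0 counts in every control line. Only maternal null reads put these markers among the 39, so that their direction was fixed in advance. Tdpoz3 was the reverse case, with a read in a control line alone.

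Tmem92, a two-cell marker that encodes a transmembrane protein, had the lowest unadjusted p of the 9 filtered markers. It had 1, 7 and 3 counts in the controls and 22, 36 and 7 in the maternal nulls. Only the maternal null lines carried it past the expression filter, so that its place among the filtered markers rested on the genotype where it was higher. It stood at 0.036, 0.0538 and 0.063 CPM in control lines 1 to 3 and at 0.182, 0.332 and 0.201 CPM in maternal null lines 1 to 3. Unlike the 6 genes it was as high in maternal null line 3 as in line 1, and the genotypes did not overlap. Its log2 fold change was 2.16 ± 0.52 (SE, edgeR adjusted p = 0.99, unadjusted p = 0.0033). Gm12794 had a log2 fold change of 1.38 ± 0.58 (edgeR adjusted p = 0.99), with 0.108, 0.138 and 0.063 CPM in the controls against 0.240, 0.452 and 0.115. Gm5662 had the highest log2 fold change among the 9, 2.27 ± 1.24 (edgeR adjusted p = 0.99). Its counts of 0, 1 and 8 in the controls and 36, 42 and 0 in the maternal nulls followed the pattern of Tcstv1 across the lines.

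At the other end of the 9 markers were B020004J07Rik, Arg2 and Ddit4l. B020004J07Rik stood at 2.31 to 3.11 CPM in the controls and 1.17 to 2.12 CPM in the maternal nulls, with no overlap, and had a log2 fold change of -0.69 ± 0.28 (edgeR adjusted p = 0.99). Arg2, which encodes a mitochondrial arginase, and Ddit4l, which encodes an inhibitor of mTOR signalling, had log2 fold changes of -0.35 ± 0.26 and -0.33 ± 0.34 (edgeR adjusted p = 0.99 for both). These 3 genes and Usp26 had the 4 highest total counts of the list.

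Among markers too low for the filter, Usp17le and Gm13078 are named here after their values were seen, because with Tmem92 they were the 3 of the 39 whose maternal null lines all lay above the controls. B020004J07Rik was the 1 whose lines all lay below. These 4 make up 10.3% of the 39, beside the 8.00% of all genes with a count. Usp17le, a member of a family of deubiquitinating enzymes, had 1, 5 and 1 counts in the controls and 21, 14 and 2 in the maternal nulls. Usp17lb, also chosen after its values were seen, had 0 counts in all 3 controls and 7, 7 and 0 in the maternal nulls. All 47 markers in the table summed to 24.2, 28.7 and 36.3 CPM in control lines 1 to 3 and 27.8, 25.4 and 34.2 CPM in maternal null lines 1 to 3, so that line 3 was the highest maternal null line and the genotypes overlapped. Without Ddit4l, Arg2, Usp26 and B020004J07Rik, a choice made after the values were seen, the remaining 43 markers summed to 0.891 to 1.76 CPM in the controls and 3.41, 3.24 and 0.573 CPM in maternal null lines 1 to 3. In this trimmed sum lines 1 and 2 of the maternal null genotype were the high lines, and line 3 the lowest of the 6.

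**Figure D3:**
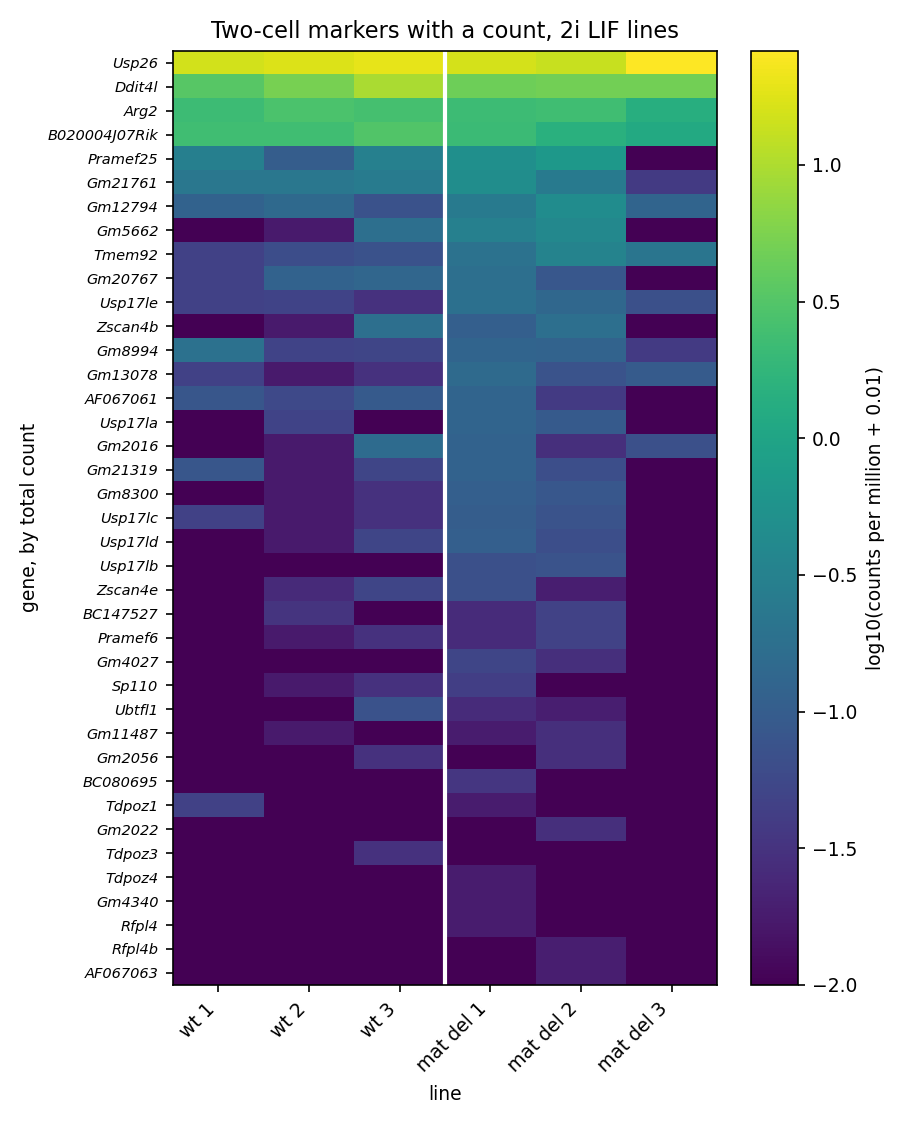
Level of the 39 two-cell markers with a count in the 6 lines of 2i LIF, as log10(CPM + 0.01), with genes ordered by total count and a white line between control and maternal null lines. Below the 4 abundant genes several markers were brightest in maternal null lines 1 and 2. Many were dark in maternal null line 3 and in control line 1, the shallowest libraries, where a count of 0 allows up to 0.0859 and 0.108 CPM.

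Known activators of the programme differed in their order of lines. Duxf3, the Dux gene in the table, had 0 counts in all 6 lines. Dppa2 and Dppa4, which act together upstream of Dux, were well expressed, Dppa2 at 73.7, 69.2 and 54.4 CPM in the controls and 71.9, 69.4 and 120.4 CPM in the maternal nulls. Dppa4 was at 61.0, 54.3 and 59.0 CPM against 60.9, 53.7 and 95.5 CPM. Both were highest in maternal null line 3, which had a single read on the 6 genes. Control line 1 also had a single read on the 6 genes, and there Dppa2 and Dppa4 were at 73.7 and 61.0 CPM. Their log2 fold changes were 0.41 ± 0.23 and 0.27 ± 0.20 (SE, edgeR adjusted p = 0.99 for both). Nelfa and Dppa3 are named after their values were seen, to complete the filtered activators. Nelfa was at 80.1, 82.7 and 76.1 CPM in the controls and 83.8, 82.0 and 77.4 CPM in the maternal nulls, with line 3 the lowest of its genotype. Dppa3 was at 127.1, 105.3 and 104.3 CPM against 101.5, 133.3 and 170.3 CPM, highest in maternal null line 3. Of the 6 activators listed 5 were in the table and 4 passed the filter. All 4 had a positive log2 fold change, beside 8547 of the 17696 tested genes, and 0 had an unadjusted p under 0.05.

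All 27 listed repressors of the two-cell-like state passed the filter, among them Trim28 and Setdb1, which silence retroelements, Chaf1a and Chaf1b of the chromatin assembly complex, and Kdm1a. Smchd1, which stood on this list, was the only 1 with an unadjusted p under 0.05, beside 2.24% of all tested genes. In edgeR 0 passed after adjustment. The median log2 fold change of the 27 was 0.05. The summed level of the 27 was 8874 to 9528 CPM in the controls and 8812 to 11690 CPM in the maternal nulls, with line 3 the highest.

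Markers of other cell types were examined beside these values. The summed level of 8 fibroblast markers was 1.84 to 6.32 CPM in the controls and 1.51 to 3.27 in the maternal nulls, and 1 of the 8 was at 0 in all lines. The 8 primitive endoderm markers summed to 79.7 to 93.7 CPM and 93.8 to 151 CPM. Their means were higher in the maternal nulls for 7 of 8 (not for Sox17), beside 49.7% of all genes with a count. Most of this sum was Lama1, named after its values were seen. It stood at 69.5, 76.1 and 82.6 CPM in control lines 1 to 3 and 81.0, 81.7 and 137.7 CPM in maternal null lines 1 to 3, with overlap. The 8 trophectoderm markers summed to 39.3 to 54.2 CPM and 39.3 to 55.3 CPM, and the 8 primed epiblast markers to 208 to 269 CPM and 195 to 234 CPM. The filter was passed by 2 fibroblast, 8 primitive endoderm, 5 trophectoderm and 7 primed epiblast markers. Across these 4 lists 1 gene had an unadjusted p under 0.05, beside 2.24% of all tested genes, and 0 passed adjustment in edgeR. It was Dnmt3b of the primed epiblast list, which encodes a DNA methyltransferase, named after its values were seen (log2 fold change -0.70 ± 0.25, edgeR adjusted p = 0.99). The part of other cells in the low counts of the 6 genes was not tested.

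The genes whose level ran most like the mean log2 CPM of Zscan4c, Zscan4d and Zscan4f over the 6 lines were sought among 17695 filtered genes. The 5 most alike were Tmem134 (Pearson r = 0.996), Alox12e (0.993), Ict1os (0.987), Gm44371 (0.984) and Acss2os (0.984). None is on the two-cell marker list, and all 5 were low, between 0.108 and 1.09 CPM in each line. In all, 100 genes (0.565%) reached an r of 0.9, of which 0 were among the 9 filtered two-cell markers, whose median r was 0.582 beside 0.0403 over all genes. With 6 points that share libraries, and with Zscan4 values set by a few reads, these correlations describe the lines and carry no test.

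The 6 genes were far more counted in the time course than in 2i LIF. The time course columns held 281284 to 103267407 counts each. By label they were repeated samplings of the same few lines of each genotype, so that they are not independent observations. Their names were not taken as reliable. Over 72 genes with both values, the counts of 38 of the 45 columns were most like the log2 RPKM values of a column with another name. A replicate of the same day and genotype counted as another name, so that this check alone does not show a wrong day or genotype. No direction by day or genotype was drawn from the columns. Scaled by library totals alone, the sum of the 6 genes was 0.0272 to 0.53 CPM in the 6 lines in 2i LIF and 0.223 to 110 CPM in the 45 columns, with a median of 19.7. Of the 45 columns 44 were above the highest 2i LIF line. Among the 24 columns with at least 10000000 counts the range was 0.863 to 60.5 CPM and all 24 were above it. In the 7 columns whose names matched, the sum was 0.223 to 62.1 CPM. The time course differs from the 2i LIF libraries in medium, in stage and in read layout (75-base single-end against paired-end reads), and these cannot be told apart.

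**Figure D4:**
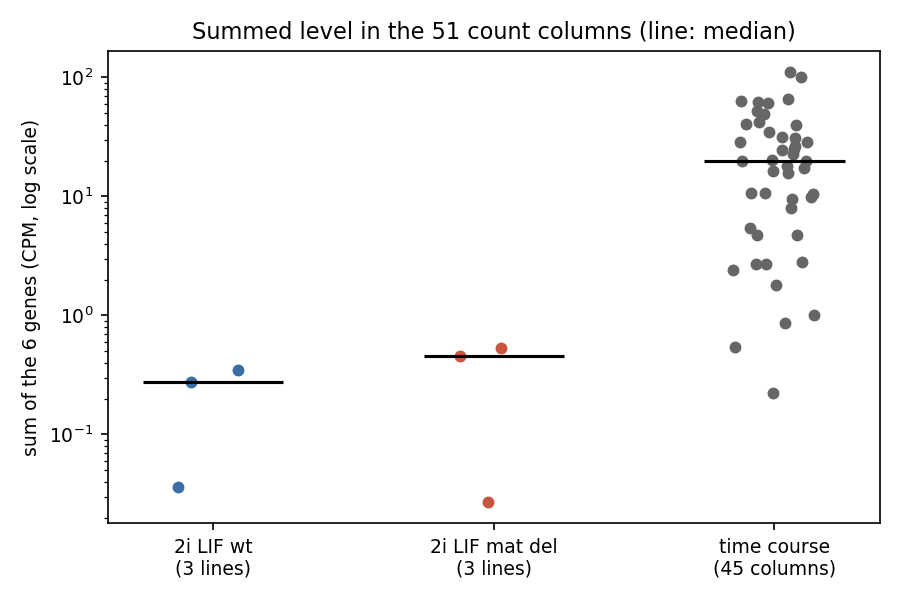
Sum of the 6 genes in CPM by library totals (vertical log axis) for 3 control and 3 maternal null lines in 2i LIF and for the 45 time course columns; each point is a column and the bar is the median. The 6 lines lay at or under 0.53 CPM and the median of the 45 columns was 19.7.

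Each of the 6 genes shared in this difference of level. Zscan4d had a median of 6.56 CPM over the 45 columns (range 0 to 34.6) beside 0.125 CPM over the 6 lines, and 44 columns exceeded the highest line. Zscan4c had a median of 4.93 CPM beside 0.0277, and Zscan4f 1.80 CPM beside 0.00395. Zfp352, Tcstv1 and Tcstv3 had medians of 1.08, 1.40 and 1.16 CPM, and were above the highest line in 37, 36 and 37 of the 45 columns. The correlation between 2 of the genes over the 45 columns ran from 0.575 to 0.88 (15 pairs, median 0.752, on log2 values), a description over columns that share lines and differ in depth. Per kilobase the median level over the columns was highest for Zscan4d, at 2.89 CPM per kb, and lowest for Zfp352, at 0.472.

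The share of Zscan4 reads given to each copy fell into separate ranges among the columns. In the 33 time course columns with at least 50 reads on the 8 counted copies, the ratio of Zscan4f to Zscan4d reads, uncorrected for length, was 0.0645 to 0.298 in 20 columns and 0.692 to 1.38 in the other 13, with none in between. By name, the 18 such columns of days 0, 1 or 2 and the 2 of day 2.5 were in the lower range and the 13 of days 3 or 4 in the upper one. Not all of the 12 columns under 50 reads followed this split. A maternal null day 1 column of 40 reads had a ratio of 1.0, and a control day 3 column of 15 reads 0.111. A control day 2.5 column of 37 reads had 2.0. Since the names were not taken as reliable, no order by day is drawn from this. In the 20 columns of the lower range Zscan4d held 22.8 to 34.7% of the Zscan4 reads and Zscan4f 1.55 to 8.8%. In the other 13 Zscan4d held 9.41 to 18.1% and Zscan4f 11.3 to 16.9%. Over all 8 counted copies the median shares ran from 4.07 to 29.6% in the 20 columns. They ran only from 7.84 to 14.0% in the 13, so that all copies were closer to each other there. The library totals of the ranges overlapped, at 3740435 to 50685073 counts and 1255868 to 103267407 counts. Zscan4c held 7.04 to 17.7% and 9.41 to 20.8%. Of the 3 lines in 2i LIF with 50 reads or more, control line 2 had a ratio of 0.0667, maternal null line 1 of 0.227 and maternal null line 2 of 0.5. How shared reads were assigned to copies in each column was not tested.

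**Figure D5:**
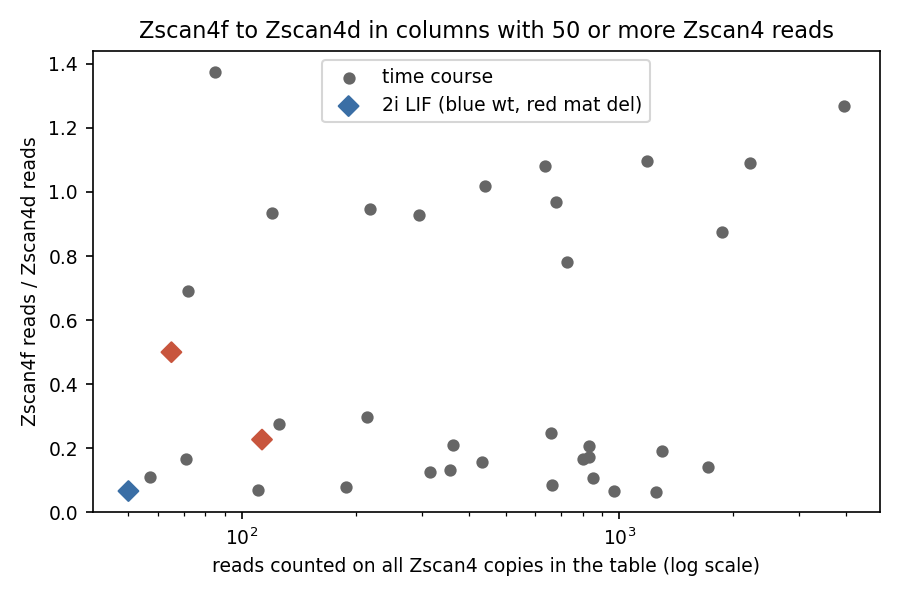
Ratio of Zscan4f to Zscan4d reads (vertical axis) against the reads on 8 Zscan4 copies (horizontal log axis) for columns with at least 50 such reads; grey points are time course columns, diamonds are 2i LIF lines, blue for control and red for maternal null. The grey points lie either at 0.298 or less or at 0.692 or more at low and high read numbers alike.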

How the data were processed

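Polyadenylated RNA of 51 libraries was measured, of which 6 (2i LIF) entered the comparison. The authors trimmed the reads with Trim Galore 0.4.4, mapped them to GRCm38.p6 with HISAT2 2.0.5 and quantified them in SeqMonk. They deposited raw read counts per gene for all libraries and log2 RPKM values, corrected by the authors for library size and transcript length, for Hox genes and differentiation factors. The latter served only to check column names. Headers of the time course count columns carry the words log2 RPKM beside raw read counts. These columns were used as counts. Whether a 2i LIF library was stranded is not given in the sources used here. No count column was left without a sample. Samples were grouped by their labels. The 6 genes and all lists were chosen with earlier results of these data known.

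Counts were analysed in R 4.3.3 with edgeR 4.0.16 (TMM scaling, filterByExpr by genotype, quasi-likelihood test, Benjamini-Hochberg adjustment over all tested genes at 0.05). The fit was tested on simulated data. Genes under the filter were compared by the exact two-sided permutation test on log2 CPM with a prior count of 2. Exact Poisson and binomial intervals (95%) cover counting error only, and a count of 0 was set at 3 counts for upper limits. Separate rows of 1 gene were kept apart. Exon lengths and transcripts came from GENCODE vM21, promoters from RefSeq. Sequences were compared with Biopython 1.88. Named genes were the 6 genes, Smchd1, two-cell markers, activators and repressors with an unadjusted p under 0.05, the 3 highest and 3 lowest filtered two-cell markers, Duxf3, Dppa2, Dppa4, 4 pluripotency genes and the 5 genes most alike to Zscan4.

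The line numbers were checked for pairing. Deviations from the genotype mean correlated over genes at 0.165, 0.334 and 0.383 for lines 1, 2 and 3, all over 0.1, which met the criterion for pairing, although the labels tie the numbers to no shared litter or day. Control line 1 correlated with maternal null line 2 at 0.239, above its own number, and control line 2 with maternal null line 1 at 0.123. The main tests were unpaired, and the line number entered as an alternative. The alternatives were RLE scaling, library totals alone, other filters, DESeq2 1.42.0, edgeR's exact test, the line number as a block, and each line left out. Leaving out both shallowest libraries, a prior count of 0.5, and DESeq2 or the exact test on all genes with a count were chosen after seeing the data.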

Additional observations from a re-analysis of the deposited data

Results flagged for a closer look

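The summed level of the 6 genes in the 45 time course columns, which entered no comparison between genotypes, had a median of 19.7 CPM, against at most 0.349 CPM in the control lines in 2i LIF. It drew attention as a signal above the controls in data outside the compared libraries. The column names were not taken as reliable, and medium, stage and read layout differ together, so that their parts cannot be told apart.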

How the results depend on the processing

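The calls of 0 genes and of 0 two-cell markers in 2i LIF, and the direction of Smchd1, held under each alternative run, except that edgeR's exact test called 2 genes, Magel2 and Gemin5 (named after their values were seen), neither of them on the two-cell lists. With the line number as a replicate block 0 genes were called, the log2 fold change of Zscan4d in edgeR was -0.073 and that of Smchd1 -0.64, and the block changed no call. Leaving out 1 line at a time, the log2 fold change of Smchd1 ran from -0.78 to -0.52. The direction of Zscan4d was not stable. Its edgeR value of 0.02 became -0.022 with all genes with any count, -0.082 with DESeq2 and -0.021 with the exact test, and ran from -0.30 to 0.40 with lines left out (it was not tested without control line 2, maternal null line 1 or line 2, or with 10 counts required in every line). Its log2 CPM difference of -0.39 ran from -0.97 to 0.54 with lines left out and was 0.045 without both shallowest libraries. For Zscan4c this difference was 0.45 and ran from -0.057 without control line 1 to 1.05 without control line 2. For Tcstv1 it was 0.43 and became -0.18 without control line 1, -0.080 without maternal null line 2 and 1.26 without maternal null line 3. The cause was not tested. Zscan4f, Tcstv3 and Zfp352 kept a positive difference under all settings run, with none past a threshold, but its size moved. With lines left out it ran from 0.57 to 1.478 for Zscan4f, from 0.62 to 1.40 for Tcstv3 and from 0.051 (without maternal null line 1) to 0.83 (without maternal null line 3) for Zfp352. With a prior count of 0.5 the differences were 1.75 for Zscan4f, 1.68 for Tcstv3, 0.96 for Zscan4c, 0.61 for Zfp352, 0.54 for Tcstv1 and -0.87 for Zscan4d. By Spearman's rho 261 genes, not 100, reached 0.9 of likeness to Zscan4, and 0 of the 5 nearest were shared. The few reads per gene limit each of these values, and in such small designs the permutation p says nothing about stability.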
